A study of Mus musculus with 5 samples.

Results

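The genes of antigen presentation were followed through the cell types of mouse kidney: 10 of the 17389 genes in the count matrix, taken by name as the MHC class I and class II genes. The class II members were Cd74, H2-Aa, H2-Ab1, H2-Eb1, H2-DMa, H2-DMb1 and Ciita, and the class I members were H2-K1, H2-D1 and B2m. All 10 had counts. The cells came from adult FVB/Ant mice, either wild type or with both copies of Fame (Ccdc198) disrupted by CRISPR/Cas9. The edit placed stop codons downstream of the start codon, and the controls were wild-type littermates. Kidneys were perfused with PBS and digested with collagenase P and trypsin, and the cells were sequenced with 10x Genomics 3′ chemistry, which counts unique molecular identifiers (UMIs) at the end of the transcript. There were 2 wild-type libraries, one from females (WT female) and one of both sexes (WT mix), and 3 knockout libraries, one from females, one from males and one of both sexes (KO female, KO male, KO mix). No library of wild-type males was among them, and exact ages and the number of mice behind each library were not given in the sources used here, so p-values measure only the spread between these libraries. The single-cell data were collected to look further into the function of Fame in the kidney. The 14197 cells had been sorted into 19 types by the authors.

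Libraries held between 1794 and 3567 cells and between 9791091 and 15950717 UMIs. The 3 libraries of a single sex belonged to one sequencing run and both mixed libraries to another, so run and mixing of sexes cannot be told apart, and the median share of mitochondrial UMIs was 12.6 to 15.3% in the first and 28.4 to 29.4% in the second. At most 5 cell barcodes were shared by any pair of libraries. Each of 15 marker lists was highest in a type of the matching label or, for the listed dendritic cell, neutrophil and B cell genes, in an immune cluster, and the cluster labelled T cells/NK cells also held B cell markers at 29.8 to 807 counts per 1000000 UMIs (CPM) and macrophage markers at 709 to 1584 CPM. The 3′ tags of Fame remained in the knockout libraries at 83.1 to 148 CPM over all cells, against 71.5 and 196 CPM in wild type. As the edit puts stop codons in the coding sequence and the tags come from the end of the transcript, these tags do not check the genotype.

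Cells show peptides to T cells on 2 kinds of surface complex. Class I molecules, a heavy chain such as H2-K1 or H2-D1 bound to β2-microglobulin (B2m), are carried by nearly all nucleated cells and present peptides made inside the cell. Class II molecules, pairs of an α and a β chain (H2-Aa with H2-Ab1), are mostly restricted to macrophages, dendritic cells and B cells, where Cd74, the invariant chain, guides them to the compartment in which H2-DMa and H2-DMb1 load the peptide, and the coactivator Ciita switches their genes on. Interferon-γ raises both kinds, and can induce class II on endothelium and on renal tubule cells.

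Class II transcripts were concentrated in the myeloid cells, a cluster of 340 cells. Cd74 stood at 17444 and 26890.3 CPM in WT female and WT mix, and at 26556, 13299 and 26329 CPM in the female, male and mixed knockout libraries, a mean of 22104 ± 6321 (SD, n = 5 libraries). Every library lay far above the next type, T cells/NK cells, with a mean of 1139 ± 635 (SD, n = 4 libraries), and these were the only neighbours in the order of Cd74 whose ranges did not overlap. Among the larger types, glomerular endothelial cells (GL_endo) came next, at 43.9 and 579 CPM in WT female and WT mix and at 438, 303 and 458 CPM in the knockout libraries, a mean of 365 ± 204 (SD, n = 5). WT female thus stood well below the other 4 libraries in these cells. The mean in myeloid cells was 60.6 times that in glomerular endothelial cells and 229 times that in the proximal convoluted tubule (PTc). Since the types were built from the same counts, differences between them are descriptions without a test.

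The 2 chains of the class II molecule followed the invariant chain. H2-Aa, the α chain, was measured in myeloid cells at 2614, 7413, 5366, 2200.27 and 7079 CPM, in the order of the libraries above, with a mean of 4934 ± 2439 (SD, n = 5). H2-Ab1, the β chain, was measured there at 2667, 6797, 4326, 2396 and 7191 CPM, with a mean of 4675 ± 2246 (SD, n = 5). For both genes the mixed libraries and KO female were the highest, and KO male and WT female the lowest. In glomerular endothelial cells H2-Aa stood at 17.9, 118, 43.2, 39.4 and 88.7 CPM and H2-Ab1 at 15.9, 145, 63.6, 43.3 and 168 CPM. H2-Eb1, a second β chain, was scarce, with 114 UMIs in all cells, 83 of them in myeloid cells, where it averaged 126 ± 46.4 CPM (SD, n = 5).

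H2-DMa and H2-DMb1, which load the peptide, had more of their UMIs outside myeloid cells. Of all UMIs of each gene, myeloid cells held 79.6% for Cd74, 87.9% for H2-Aa, 78.2% for H2-Ab1, 72.8% for H2-Eb1 and 67.8% for Ciita, but 48.6% for H2-DMa and 18.0% for H2-DMb1. These shares mostly reflect the mixed libraries, which held most myeloid cells: for Cd74 they were 56.3, 61.2 and 50.5% in the libraries of a single sex and 81.0 and 88.0% in the mixed ones, and for H2-DMa 17.2, 19.5 and 20% against 61.8 and 63.3%. For Ciita, with 3 to 8 UMIs in each library of a single sex, they were 0, 12.5 and 25% against 75.9 and 71.4%. H2-DMa averaged 523 ± 149 CPM in myeloid cells and 19.6 CPM in glomerular endothelial cells. H2-DMb1 averaged 326 ± 66.4 CPM (SD, n = 5) in myeloid cells. In PTc it stood at 26.3, 27.9, 30.0, 30.2 and 36.5 CPM, a mean of 30.2 ± 3.89 (SD, n = 5), so that no library stood apart, and PTc held 30.6% of its UMIs. The gene lies next to a close paralog, H2-DMb2, and how reads were divided between them was not tested. Ciita, the class II coactivator, was detected in myeloid cells by 0, 60, 1, 1 and 35 UMIs, in glomerular endothelial cells at a mean of 5.57 CPM and in PTc at 0.991 CPM. With 11 to 20 myeloid cells in the libraries of a single sex and 147 and 148 in the mixed ones, a level of Ciita was measurable only in the mixed libraries, at 247 and 140 CPM.

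**Figure D1:**
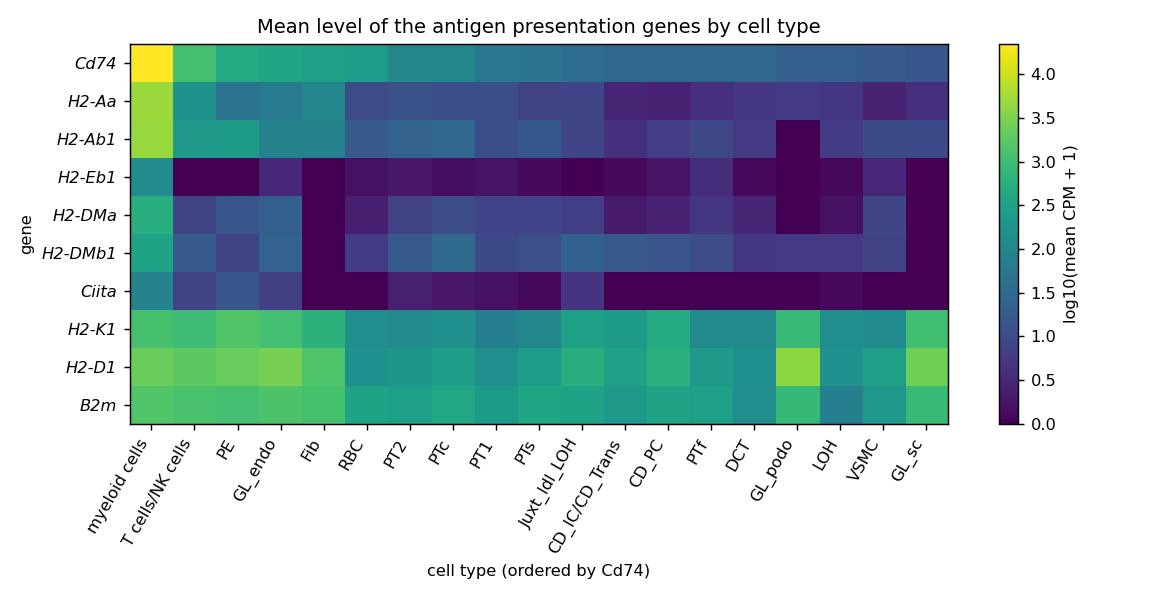
Mean level of the 10 antigen presentation genes (rows) in each cell type (columns), as CPM on a log colour scale, over the libraries with at least 10 cells of the type. Class II members peak in the myeloid column, with Cd74 at 22104, whereas H2-K1, H2-D1 and B2m are high in glomerular, stromal and immune types together.

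Class I transcripts were found in every type and followed another order. H2-K1, a class I heavy chain, averaged 1215 ± 581 CPM in myeloid cells and 1102 ± 649 CPM in glomerular endothelial cells (SD, n = 5), and had its highest mean in the parietal epithelium of the glomerulus (PE) at 1469 CPM. PE was measured in the mixed libraries only, at 1236 and 1701 CPM (n = 2), and glomerular endothelial cells of the same libraries read 1990.26 and 1586. H2-D1, the other heavy chain, averaged 2863 ± 1397 CPM in glomerular endothelial cells and 2230 ± 980.4 in myeloid cells (SD, n = 5). Podocytes, at 4023 ± 568, and the GL_sc cluster, at 2616 ± 848, were measured in the mixed libraries only (SD, n = 2). In those libraries podocytes, at 4425 and 3622 CPM, were below glomerular endothelial cells, at 4517 and 4243, in both, and GL_sc was below myeloid cells in both. B2m, the light chain, stood at 1280.27, 2007, 1177, 831 and 2094 CPM in myeloid cells, a mean of 1478 ± 549, and at 833, 1904, 1047, 854 and 2119 CPM in glomerular endothelial cells, a mean of 1352 ± 613 (SD, n = 5). For H2-K1 and H2-D1 the ranges of all neighbours in the order overlapped.

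Tubule cells carried less class I RNA, and the segments differed. B2m averaged 396 CPM in PTc, 355 ± 16.4 CPM (SD, n = 5) in the proximal straight tubule (PTs), 135 CPM in the distal convoluted tubule (DCT) and 72.9 ± 14.4 CPM in the loop of Henle (LOH). In LOH the libraries read 57.9, 86.0, 59.4, 72.2 and 88.8 CPM, all below the lowest of DCT. Glomerular endothelial cells held 18.5 times the B2m and 18.6 times the H2-D1 of LOH. The order of tubule segments was not the same for the heavy chains: H2-K1 was highest in collecting duct principal cells (CD_PC) at 468 CPM, and stood in PTc at 156, LOH at 138 and PTs at 101 CPM, whereas H2-D1 stood at 600 CPM in CD_PC, 254 in PTs, 154 in LOH and 143 in PT1, an unidentified proximal tubule cluster. H2-K1, H2-D1 and the H2-Q genes are close paralogs, and how reads of this strain were shared among them by the alignment to mm10 was not tested.

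**Figure D2:**
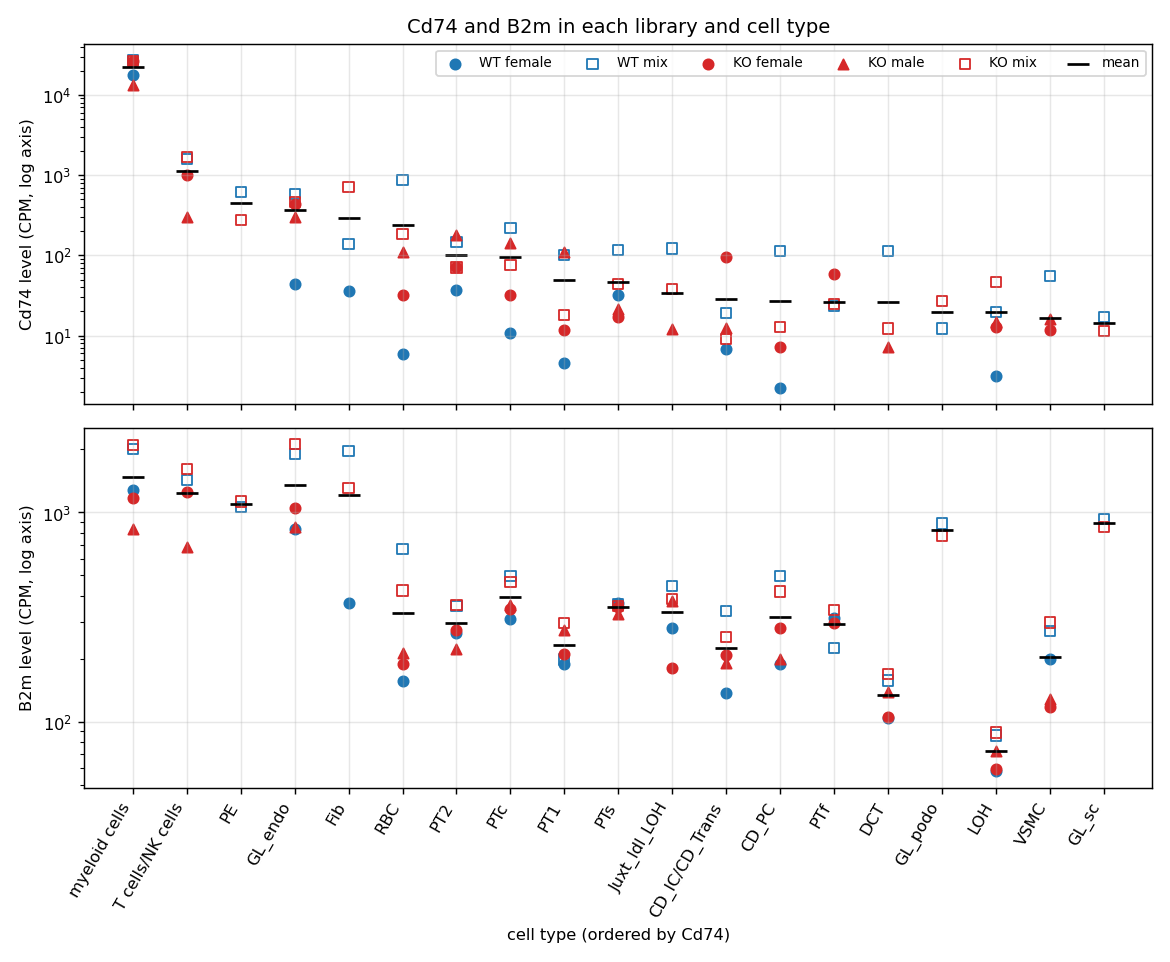
Level of Cd74 and B2m in each library (points, log axis, CPM) by cell type; libraries at 0 are not drawn. Cd74 reaches 26890.3 in myeloid cells and scatters widely between libraries in tubule cells, and B2m scatters less, from 327 to 368 in PTs.

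Class II transcripts outside myeloid cells were uneven between libraries. A UMI of Cd74 was present in 97.1% of myeloid cells (330 of 340). In glomerular endothelial cells the share was 6.16 and 40.6% in WT female and WT mix, and 28.9, 31.9 and 36.1% in the female, male and mixed knockout libraries. The shares in the same order were 1.18, 34.6, 9.76, 17.8 and 15.1% in PTc, 4.92, 21.2, 8.73, 7.14 and 8.96% in PTs, and 1.61, 4.26, 4.55, 4.19 and 1.81% in LOH. With each PTc cell thinned to 1000 UMIs the order of the libraries was kept, at 0.592, 14.5, 1.67, 8.63 and 4.49%. C1qa, a macrophage gene that these cells should lack, had a UMI in at most 0.76% of PTs and PTc cells of any library.

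The mixture of transcripts that came with Cd74 also differed between types. In myeloid cells there were 25.1 UMIs of the 3 C1q genes for each 100 of Cd74, and between 19.5 and 26.1 in the single libraries. In glomerular endothelial cells the ratio was 2.87 over all libraries, at 18.2, 4.94, 1.04, 1.30 and 0.984 in the single ones. The value of WT female, the library with the least Cd74, rests on 4 C1q UMIs beside 22 of Cd74. These are too few to place it near the myeloid ratio or away from it. Every other library was below the myeloid range. PTc gave 2.91, PTs 8.53 and LOH 15.9 per 100. In PTs of WT mix there was no C1q UMI beside 389 of Cd74. WT female PTs, at 37.5 per 100, was above the myeloid ratio, and KO mix LOH, at 24.1, was within its range. What part macrophage RNA had in the Cd74 counts of these cells was not tested.

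With the cells of all libraries pooled, H2-Ab1 was detected more often in cells that had a Cd74 UMI. Among glomerular endothelial cells, 38.6% of those with a Cd74 UMI and 7.29% of those without had a UMI of H2-Ab1. The corresponding shares were 32.3 and 3.43% in PTc, 25.3 and 4.65% in PTs, and 97.0 and 10.0% in myeloid cells, of which only 10 lacked Cd74. Cells with Cd74 were somewhat deeper, at a median of 1881 against 1595 UMIs in glomerular endothelial cells and 5048.5 against 4699.5 in PTc. Both genes also differed between libraries, and the part of depth and library in these shares was not tested. A small number of cells carried much of the signal: 18 glomerular endothelial cells, 18 PTc cells and 14 PTs cells had at least 10 UMIs of Cd74 and held 29.2, 32.4 and 33.8% of the Cd74 UMIs of their type. Of these, 11, 14 and 8 had no UMI of any of 31 immune cell markers (macrophage, dendritic, B, T, NK and neutrophil genes), whereas none of the 3 such cells of LOH was without one. Leaving out all cells with an immune marker gave Cd74 at 38.0, 510.3, 405, 311 and 465 CPM in glomerular endothelial cells and at 10.9, 204, 33.0, 94.2 and 75.1 CPM in PTc, near the full values except in KO male PTc. In the other proximal tubule clusters some libraries were well below their full values, KO male from 109 to 17.7 CPM in PT1 and from 178 to 65.4 in PT2, KO female from 71.3 to 28.0 and KO mix from 70.6 to 36.6 in PT2, and KO mix from 43.8 to 24.9 in PTs. In LOH it left 3.82, 17.7, 5.77, 4.42 and 5.64 CPM, where KO mix had stood at 47.0 before. Doublets that carry none of the listed markers were not tested for beyond the doublet scores.

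Loss of Fame changed no antigen presentation gene past the threshold. In the 11 types with enough cells in both genotypes, edgeR's quasi-likelihood test on counts summed per library called 0 of 52 member tests at a Benjamini-Hochberg adjusted p below 0.05, against a background of 0 called genes (0.0%) of 68554 gene tests. At an unadjusted p below 0.05 there were 284 genes (0.414%) and no member, and DESeq2 also called 0 genes, with 67 at the unadjusted level. Of the 52 fold changes 22 were positive and 30 negative.

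The intervals were wide for Cd74 in every type and for class I in glomerular endothelial cells. Cd74 in PTs stood at 31.8 and 116 CPM in wild type and at 17.3, 21.6 and 43.8 CPM in knockout, so that the genotypes overlapped, with a log2 fold change of −1.43 ± 0.71 (SE; 95% interval −3.17 to 0.31). In glomerular endothelial cells the log2 fold change of Cd74 was 0.54 ± 0.81 (−1.34 to 2.41), in LOH 1.44 ± 0.94, in PTc −0.62 ± 1.33, in PT1 −0.33 ± 1.25 and in PT2, the other unidentified cluster, 0.18 ± 0.69. H2-K1 ran from −0.25 in glomerular endothelial cells through −0.17 in PTs, −0.16 in PT1, −0.07 in PTc and −0.02 in PT2 to 0.13 in LOH. H2-D1 was at 0.18 in PTs, 0.17 in PT1, 0.13 in PTc, 0.07 in PT2, −0.09 in glomerular endothelial cells and near 0 in LOH. B2m was at −0.05 in PTs (95% interval −0.71 to 0.62), −0.10 in PTc, 0.45 in PT1, −0.13 in PT2, 0.05 in LOH and 0.06 in glomerular endothelial cells. The 95% intervals in glomerular endothelial cells were −1.61 to 1.11 for H2-K1, −1.34 to 1.16 for H2-D1 and −1.12 to 1.24 for B2m, each past a 2-fold change in both directions. H2-DMb1 in PTc had a narrower one, from −0.41 to 0.85. Of Cd74, the interval in PTs left out a 2-fold rise and that in LOH, from −0.76 to 3.64, a 2-fold fall, whereas a 2-fold change in either direction lay within those of the other 4 types.

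One call arose when the libraries were compared within the same composition of sexes. With that composition as a block, Cd74 in PT1 was lower in knockout by edgeR's quasi-likelihood test, at a log2 fold change of −1.88 and a Benjamini-Hochberg adjusted p of 0.000398, in a fit with 1 residual degree of freedom that called 93 genes over all types. The mixed libraries read 101 CPM in wild type and 18.2 in knockout, but the female libraries read 4.61 and 11.6, so the pairs went opposite ways, and the KO male library at 109 CPM, or 17.7 CPM without cells that had an immune marker, had no wild-type partner. Without WT female, Cd74 in CD_PC was called lower in knockout (−3.72 ± 0.65, adjusted p = 0.0409 by edgeR), against a single wild-type library that is assumed to vary like the others. That library, WT mix, read 113 CPM, and 15.9 CPM without cells that had an immune marker, beside 12.9 and 12.2 CPM in KO mix. One CD_PC cell, which had an immune marker, held 68.8% of the Cd74 UMIs of the type. Myeloid cells were too few in the libraries of a single sex for that fit. Cd74 averaged 22062 CPM there in knockout and 22167 in wild type, and all 10 members had an adjusted p of 1 by a two-sided exact permutation test, whose smallest possible p with 3 against 2 libraries is 0.2.

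The mixed libraries held more antigen presentation RNA than those of a single sex, with the most calls in glomerular endothelium. With genotype as a covariate, 51 of 52 member tests had a positive log2 fold change and 11 passed the threshold, all higher in the mixed libraries, against 15.2% of all gene tests called in either direction and 7.45% called higher. The median log2 fold change of all genes ran from −0.017 in PTc to 0.016 in glomerular endothelial cells, and their share of positive signs was not computed. The 52 tests repeat the same genes and libraries over cell types, so they are not independent. The count of member calls rested on the libraries, with 29 without KO male and 3 without WT female. Without WT mix, which leaves 1 mixed library, Cd74 in CD_IC/CD_Trans was lower in KO mix (log2 fold change −2.85). KO female read 94.7 CPM of Cd74 in that type, and 4.95 CPM without cells that had an immune marker. In that type 1 cell, which had an immune marker, held 71.8% of the Cd74 UMIs. The 11 were 5 genes in glomerular endothelial cells, B2m and Cd74 in LOH, and B2m in PTc, DCT, CD_PC and intercalated or transitional collecting duct cells (CD_IC/CD_Trans). As the mixed libraries are also one sequencing run with a higher mitochondrial share, the part of sex, animals, run and cell quality in these differences cannot be told apart.

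In glomerular endothelial cells 5 of 7 tested members rose, where 26.8% of all genes were called and 13.0% were called higher. H2-K1 stood at 548, 791 and 594 CPM in the libraries of a single sex and at 1990.26 and 1586 in the mixed ones, a log2 fold change of 1.23 ± 0.19 (SE; edgeR quasi-likelihood test, Benjamini-Hochberg adjusted p = 0.000506). H2-D1 stood at 1662, 2092 and 1799 against 4517 and 4243 CPM (1.01 ± 0.17, adjusted p = 0.00103 by edgeR), and B2m at 833, 1047 and 854 against 1904 and 2119 CPM (0.92 ± 0.16, adjusted p = 0.000951 by edgeR). For all 3 class I genes the groups did not overlap, and each mixed library was close to the other. The share of all genes without such overlap was not computed. The make-up of the cluster moved with the same contrast: the 7 endothelial markers summed to 5033, 5114 and 3921 CPM in the libraries of a single sex and to 8173 and 7880.32 in the mixed ones, and the 8 proximal tubule markers to 3500.4, 3612 and 2027 against 1514 and 1756 CPM. Their part in the rise of the members was not tested. The class II chains rose too: H2-Ab1 by 1.86 ± 0.33 (adjusted p = 0.00134 by edgeR) and H2-Aa by 1.45 ± 0.35 (adjusted p = 0.00856 by edgeR) on the log2 scale, from the values given above, without overlap. Cd74 did not pass (1.36 ± 1.23, adjusted p = 0.526 by edgeR), and neither did H2-DMb1 (0.25 ± 0.51). KO female, at 438 CPM of Cd74, lay near the mixed libraries, but Cd74 was not called without that library either. Without WT female, H2-D1 (adjusted p = 0.123), B2m (0.0603) and H2-Aa (0.242) missed the threshold in edgeR, and without WT mix H2-D1 (0.0501) and H2-Aa (0.258) did, as did B2m without KO mix (0.0811). H2-K1 passed in every alternative that was run, and H2-Ab1 in all but the filter of at least 20 counts in every library, under which H2-Ab1 and H2-Aa could not be fitted. DESeq2 did not call H2-Aa (adjusted p = 0.0578). Macrophage markers summed to 17.9 to 81.8 CPM in these cells, with Adgre1 at 0, and in cells without an immune marker class I was nearly the same, at 559, 856 and 588 against 1949 and 1576 CPM for H2-K1. The class II chains were lower there in the libraries of a single sex, H2-Aa to 5.85, 21.0 and 28.3 CPM against 94.5 and 89.0 in the mixed ones, with a log2 fold change of 2.28 in place of 1.45, and H2-Ab1 to 5.85, 62.9 and 28.3 against 134 and 171 CPM.

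**Figure D3:**
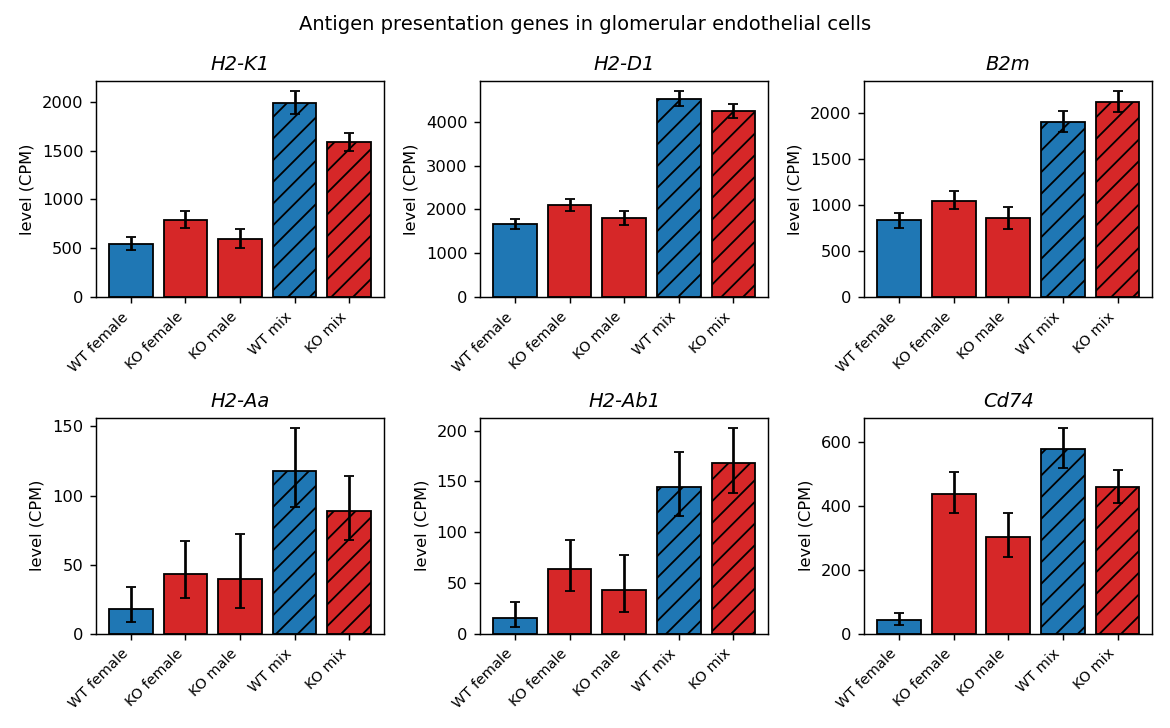
Levels of the antigen presentation genes in glomerular endothelial cells of each library (points, CPM). For H2-K1, H2-D1, B2m, H2-Aa and H2-Ab1 both mixed libraries lie above the 3 libraries of a single sex, with H2-K1 at 1586 and 1990.26 against 548 to 791, whereas Cd74 of KO female at 438 lies beside the mixed ones.

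In tubule and duct cells most member calls were of B2m, although its fold changes were not the largest. In PTc H2-Ab1 (2.24 ± 1.07) and H2-Aa (2.03 ± 1.37) had larger log2 fold changes and did not pass. No class II member could be tested in DCT, CD_PC or CD_IC/CD_Trans. In LOH B2m read 57.9, 59.4 and 72.2 CPM in the libraries of a single sex and 86.0 and 88.8 in the mixed ones, without overlap (0.63 ± 0.17, adjusted p = 0.00893 by edgeR). In PTc it read 310, 344 and 360 against 497 and 467 CPM (0.74 ± 0.16, adjusted p = 0.0294 by edgeR), where 4.95% of all genes were called higher and 1 of 8 tested members was. In CD_PC the log2 fold change was 0.90 ± 0.21 (adjusted p = 0.00291), in DCT 0.69 ± 0.22 (adjusted p = 0.0140) and in CD_IC/CD_Trans 0.63 ± 0.21 (adjusted p = 0.0365), all by edgeR. In these types 10.2, 8.02 and 10.7% of all genes were called higher, and 1 of 3 tested members. B2m was positive in all 11 types, and the mixed libraries lay above the others in 9 of them. The types share the same libraries, and the share of all genes with the mixed libraries above the others was not computed. In cells with at most 25% mitochondrial UMIs the sign of B2m turned in PTs, PT1 and PT2 (−0.070, −0.18 and −0.061), and with cells of at least 2000 UMIs in PT1. DESeq2 called B2m in PTc but not in LOH (adjusted p = 0.148), DCT (0.284), CD_PC (0.0554) or CD_IC/CD_Trans (0.143). None of the B2m calls in tubule or duct cells held when WT female or WT mix was left out.

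Cd74 in LOH was called at a log2 fold change of 2.06 ± 0.30 (adjusted p = 7.99e-06 by edgeR), where 11.7% of genes were called higher. Its values were 3.15, 12.7 and 14.9 CPM against 19.5 and 47.0, and macrophage markers summed to 11.4 to 31.2 CPM in the same cells. The call was lost without the genotype covariate (adjusted p = 0.0607), the sign turned in cells with at most 25% mitochondrial UMIs (−6.31), and the gene was too sparse to be fitted in cells without an immune marker. In PTs, where 0.648% of genes were called, Cd74 (1.67 ± 0.29, adjusted p = 0.0795), H2-Ab1 (1.95 ± 0.31, adjusted p = 0.0755) and H2-Aa (2.05 ± 0.45, adjusted p = 0.112) missed the threshold in edgeR. DESeq2 called Cd74 (adjusted p = 0.00231) and H2-Ab1 (adjusted p = 0.00437) there, but not H2-Aa. Of all genes 8.12% were called in PTc, 15.9% in PT1, 3.69% in PT2 and 24.1% in LOH in this comparison. The other named values were 0.32 and 0.30 for H2-K1 and H2-D1 in PTs, 0.58 and 0.42 in PTc, 0.66 and 0.81 in PT1, 0.31 and 0.47 in PT2, and 0.38 and 0.25 in LOH. Cd74 gave 1.93 ± 2.05 in PTc, 0.49 ± 2.39 in PT1 and 0.41 ± 1.07 in PT2, and B2m 0.23 in PTs, 0.21 in PT1 and 0.50 in PT2, none past the threshold.

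**Figure D4:**
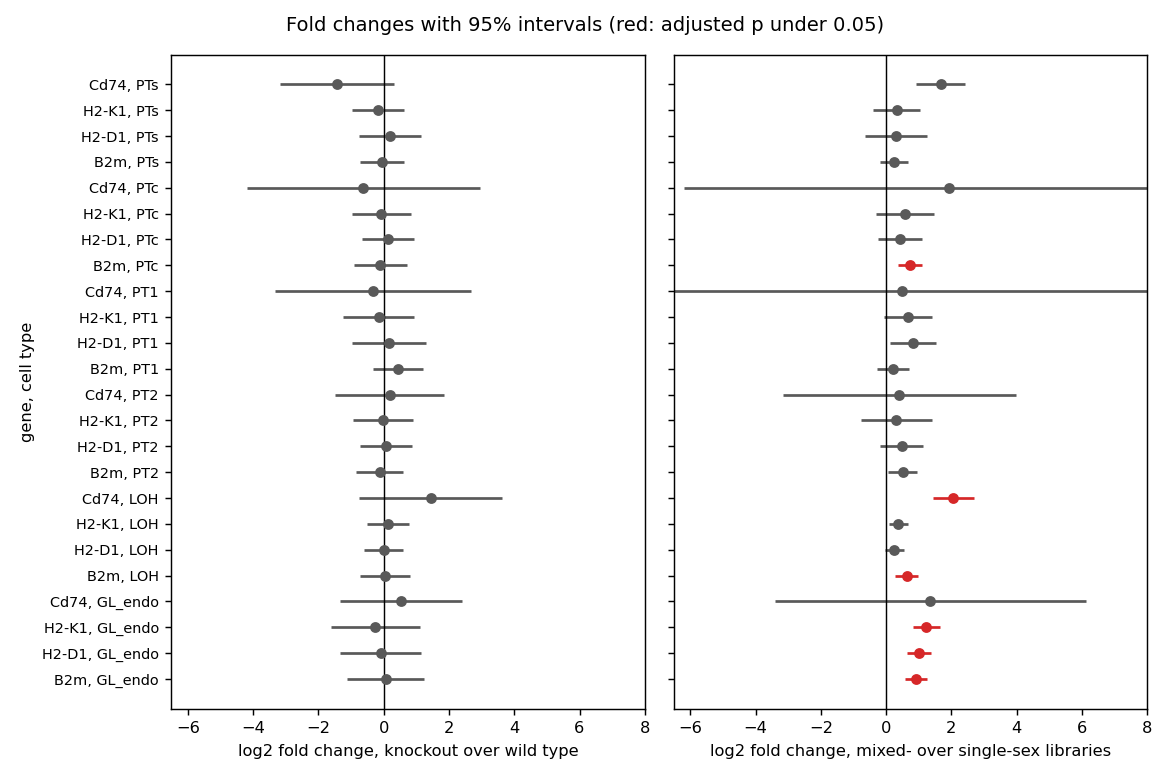
Log2 fold changes with 95% intervals of Cd74, H2-K1, H2-D1 and B2m in 6 cell types for knockout against wild type and for mixed against single-sex libraries. All knockout intervals include 0; the mixed contrast lies above 0 for H2-K1, H2-D1 and B2m in glomerular endothelial cells (1.23, 1.01 and 0.92), and the intervals of Cd74 in PTc and PT1 run past the axis there.

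Promoter sequence was examined for the members with an entry, 4 of the 5 called in glomerular endothelium among them. Class II and class I promoters are known for a module in which an X2 box, with a core such as TGACG, stands before a Y box, whose core ATTGG is the binding sequence of NF-Y, and it is through this module that Ciita and its class I counterpart Nlrc5 act. Windows of 250 bases before to 50 after the start (RefSeq, GRCm38.p6) were at hand for 7 members, while Cd74, H2-Ab1 and Ciita had no entry. These windows are of the reference assembly, and the promoter sequence of the FVB/Ant mice was not examined. A search on both strands for TGANG, then 20 to 23 bases, then ATTGG found a match in 6 of the 7, and in 395 of all 32851 entries (1.2%, or 0.67% in the direction of the gene). The spacing was set after these sequences had been seen, and ATTGG alone is in 37.4% of entries. The matches are given 5′ to 3′ in the direction of the gene, with the parts searched for in capitals.

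B2m: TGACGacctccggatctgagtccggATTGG
H2-K1: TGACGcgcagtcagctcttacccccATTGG
H2-D1: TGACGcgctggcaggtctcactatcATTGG
H2-DMb1: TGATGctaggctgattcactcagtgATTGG
H2-Aa: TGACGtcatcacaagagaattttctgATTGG
H2-Eb1: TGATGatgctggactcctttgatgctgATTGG

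They lie at chr2:122147609-122147638 on the plus strand for B2m, chr17:34000359-34000388 on the minus strand for H2-K1, chr17:35262993-35263022 on the plus strand for H2-D1, chr17:34153105-34153134 on the plus strand for H2-DMb1, chr17:34287867-34287897 on the minus strand for H2-Aa and chr17:34305781-34305812 on the plus strand for H2-Eb1. Those of H2-D1 and H2-DMb1 overlap an annotated exon and also match with a spacer of 23 bases, and the other 4 lie before the annotated exons. The spacer was 20 bases in the 3 class I genes and H2-DMb1, 21 in H2-Aa and 22 in H2-Eb1. H2-Aa, H2-K1, H2-D1 and B2m were called in glomerular endothelial cells, whereas H2-DMb1 carried the module and was not called, H2-Eb1 carried it and was too sparse to be tested, and neither of the entries of H2-DMa held it. These are matches of letters, and binding was not measured. Apart from B2m and Ciita, the members with coordinates lie within the H2 region of chromosome 17, from H2-K1 at chr17:33996017-34000347 to H2-D1 at chr17:35262730-35267499.

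Other genes of the pathways were followed by lists. In glomerular endothelial cells of the mixed libraries, 6 of 19 tested class I pathway genes rose and 1 fell in edgeR, with a median log2 fold change of 0.39. Those that rose were H2-Q7 (2.05), H2-Q6 (1.74) and H2-Q4 (1.09), class Ib heavy chains, Tap1 (1.45), a peptide transporter subunit, Calr (0.78), a chaperone of the heavy chain, and Psmb10 (0.68), an immunoproteasome subunit, while H2-M3 fell (−0.96). Of 16 interferon response genes 6 rose and none fell, with a median of 0.85: Socs1 (3.95), a feedback inhibitor of cytokine signalling, Ifit1 (1.45), Irgm1 (1.29), Iigp1 (1.23), Irf1 (1.20), a transcription factor induced by interferon, and Gbp7 (1.09). In the class II pathway list 2 of 6 rose, Rfxap (1.95), a subunit of the factor that binds the X box, and Cd40 (1.61), a costimulatory receptor, and Ctsl (−1.26), a cathepsin, fell, with a median of −0.30. Of all genes in these cells 26.8% were called and 13.0% were called higher, and the rises were 31.6% of the class I pathway list and 37.5% of the interferon list. Ctsl fell in all 11 types. Ifi30 fell in LOH (−1.44), DCT (−1.26), CD_PC (−1.13) and CD_IC/CD_Trans (−1.33). The class I pathway list did not rise throughout, with a median of −0.24 in LOH, −0.25 in DCT, −0.20 in PT1, −0.13 in PT2 and −0.10 in PTs. Its median was 0.12 in PTc, 0.061 in CD_PC, 0.18 in CD_IC/CD_Trans, 0.062 in the PTf cluster and 0.29 in vascular smooth muscle cells. In LOH H2-T22 (−1.20) and H2-T23 (−0.89) fell and Calr (0.41) rose. In PTc 3 of 10 interferon genes rose, Iigp1 (3.96), Igtp (2.06) and Irgm1 (1.36), where 4.95% of all genes were called higher. Irgm1 also rose in CD_PC (1.42) and CD_IC/CD_Trans (1.51). No listed gene was called between genotypes in any type.

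By level, 8 of 15 class II pathway genes in the matrix were highest in myeloid cells, among them Ctss, the cathepsin that trims the invariant chain, at 1454 CPM against 6.23 in glomerular endothelial cells. The class I pathway was spread more widely, with 6 of 20 genes highest in myeloid cells and 4 in glomerular endothelial cells. Over the mean levels of 19 types, the genes with a pattern most like Cd74 were H2-Ab1 (Pearson's r = 0.969 on log2 CPM + 10), H2-Aa (0.957), Irf8 (0.916), Tyrobp (0.912) and Gng2 (0.908), among 7144 genes. Those most like B2m were Lgals3bp (0.916), H2-D1 (0.883), Baz1a (0.880), H2-K1 (0.852) and Rap1b (0.849), and Cd74 and B2m gave 0.663 with each other. The points share libraries and depth, so these are descriptions.

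Within the mixed libraries Cd74 was higher in male cells of WT mix and in female cells of KO mix in the proximal tubule. Cells were called male or female from Xist and 4 Y-linked genes, and cells with UMIs of both kinds or of neither were not called. No library of a single sex had a contradicting call. Calls covered 35.1% of cells in WT mix and 52.4% in KO mix, and males were 67.9% and 22.7% of the called cells. The values by sex leave out all other cells: of 389 Cd74 UMIs in PTs of WT mix, called male and female cells held 164 and 5. In PTs of WT mix, Cd74 stood at 155 CPM in male cells (164 UMIs in 216 cells; 95% Poisson interval 132 to 181) and at 13.6 CPM in female cells (5 UMIs in 94 cells; 4.41 to 31.7). In PTs of KO mix it stood at 5.09 CPM in male cells (4 UMIs in 121 cells; 1.39 to 13.0) and at 90.7 CPM in female cells (75.4 to 108), or 45.9 CPM in female cells without an immune marker. PTc gave 196 (160 to 238) and 122 CPM (81.4 to 175) in male and female cells of WT mix, intervals that overlap, and 18.0 (6.60 to 39.1) and 95.8 CPM (79.7 to 114) in KO mix. In PTc 7 of the 10 members were higher in male cells of WT mix and all 10 in female cells of KO mix. In glomerular endothelial cells 9 were higher in males of WT mix and 7 in females of KO mix. Some of these differences were slight or rested on few counts. In PTc of KO mix, female and male cells gave 139 and 138 CPM of H2-K1, 252 and 246 of H2-D1, and 2 and 0 UMIs of Ciita. Only 18 glomerular endothelial cells of WT mix were called female. The share of all genes higher in either sex was not computed, so these counts do not set the members apart from other genes. The intervals cover counting error only, and with 1 library of each kind from different mice these are values of those libraries, without a test; the single-sex libraries did not show one order, with KO male at 144 and KO female at 32.4 CPM in PTc but at 21.6 and 17.3 CPM in PTs.

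**Figure D5:**
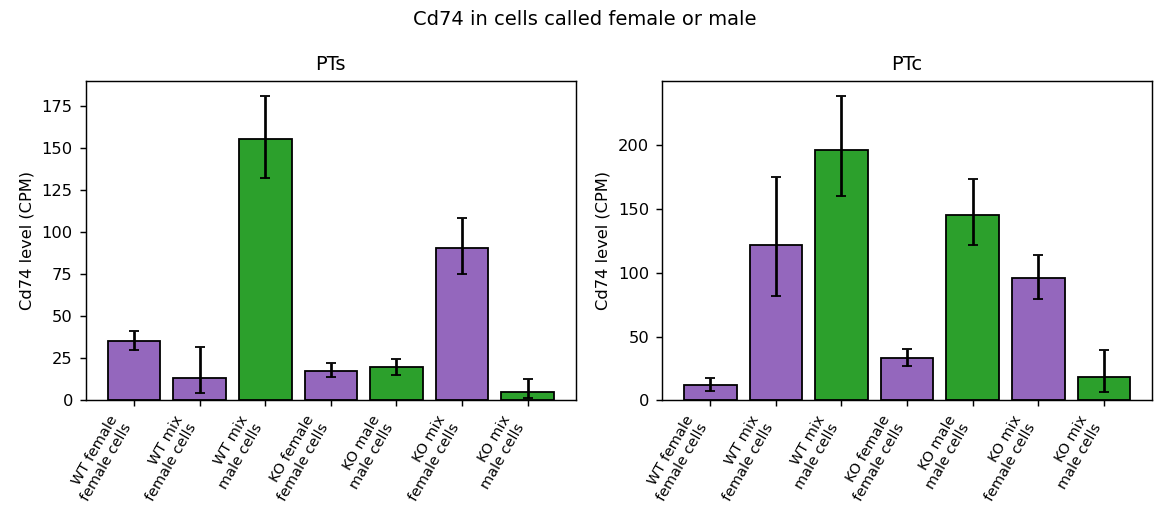
Cd74 level (CPM, bars) in cells called female or male in PTs and PTc of each library, with exact Poisson 95% intervals that cover counting error only. In PTs male cells lead in WT mix (155 against 13.6) and female cells lead in KO mix (90.7 against 5.09, or 45.9 in female cells without an immune marker).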

How the data were processed

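The deposited matrix holds raw UMI counts per gene and cell, made by the authors with Cell Ranger 4.0.0 on mm10 and filtered in Seurat 3.2.2.9001, per the labels and methods: genes in fewer than 3 cells and cells with under 1000 counts or over 50% mitochondrial counts were removed. The deposited annotation gave library, run, cell type and doublet score; its other columns were not used. Doublets were left in, with scores used in an alternative only. The authors tested single cells; here counts were summed over the cells of a type in each library, and tests needed 2 libraries of at least 20 cells in either group (myeloid cells, red blood cells, T cells/NK cells and 5 small types were not). edgeR 4.0.16 (quasi-likelihood, TMM, filterByExpr) in R 4.3.3 was fitted to all genes of a type, with Benjamini-Hochberg adjustment and a threshold of 0.05; DESeq2 1.42.0 was an alternative. The sexes and run went together, so the mixed libraries were compared with genotype as a covariate. Levels are CPM of summed counts, given for libraries with at least 10 cells, and shares carry exact intervals at 95%. Fold changes were printed for Cd74, H2-K1, H2-D1 and B2m in 6 types and for every member past the threshold. The fits were checked on simulated counts. Members, lists and comparisons were chosen with earlier results of these data known, and the cells without an immune marker were added as an alternative after seeing the data. No sequence or position of Cd74 is reported here.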

Additional observations from a re-analysis of the deposited data

Results flagged for a closer look

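The difference in Cd74 between male and female cells went opposite ways in the mixed libraries, and was singled out after its values were seen. In the proximal straight tubule, male minus female cells gave 142 CPM in WT mix and −85.6 CPM in KO mix. In the proximal convoluted tubule the values were 74.5 CPM in WT mix, where the counting intervals of the sexes overlapped, and −77.8 CPM in KO mix. The difference between the libraries was not tested, as each is 1 library and their mice differ. Among cells without an immune marker, female PTs cells of KO mix still stood at 45.9 CPM. Groups of 2 and 3 libraries are too small for a search for single libraries that stand apart.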

How the results depend on the processing

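For knockout against wild type, 0 genes and 0 members were called under most alternatives. The exceptions were 16 genes with no filter on low counts, 15 with the sequencing run as a block, and 93 genes and 1 member with the sex composition as a replicate block. Leaving out 1 library gave 0 to 25 genes and 0 to 1 member, with 10 genes without WT female and 25 without WT mix. The labels give no replicate numbers; deviations from the genotype means correlated at 0.562 to 0.833 for the female pair and at 0.578 to 0.769 for the mixed pair, which with 2 wild-type libraries mirror each other. For mixed against single-sex libraries the 10444 genes called became 4378 with DESeq2, 5797 with at least 20 counts in every library, 6690 with at most 25% mitochondrial UMIs, and 3644 to 18349 with 1 library left out, from 3644 without KO mix to 18349 without KO male. The 11 member calls became 20 with no filter and 3 to 29 with 1 library left out. The causes were not tested. Of 400 fold changes of single members under the alternatives, 322 kept direction and side of the threshold, 33 lost the call, 22 gained it and 23 turned; for the knockout, 283 of 357 kept both, 73 turned and 1 gained a call.

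Knockout fold changes (log2) of members that turned, none of them past the threshold, were as follows. With no filter H2-D1 in LOH was at 0.034, and with at least 20 counts it was at 0.0081 and B2m in GL_endo at −0.058. With the sex composition as a replicate block H2-D1 was at −0.039 in PTs, −0.029 in PT2, 0.092 in LOH and 0.14 in GL_endo, B2m at 0.040 in PTc and 0.0091 in PT2, Cd74 at −0.25 in PT2 and H2-K1 at 0.10 in GL_endo. With the run as a block PTc gave 0.59 for Cd74, 0.13 for H2-K1 and 0.058 for B2m, PT2 0.081 for H2-K1, LOH 0.065 for H2-D1, and GL_endo 0.092 for H2-K1 and 0.14 for H2-D1. With at most 25% mitochondrial UMIs H2-K1 was at 0.012 in PTs, 0.16 in PTc and 0.47 in PT2, B2m at 0.091, 0.15 and 0.012 there, Cd74 at 0.69 in PT1 and H2-D1 at 0.17 in LOH. With at least 2000 UMIs Cd74 was at 0.79 and H2-K1 at 0.11 in PT1, and H2-K1 at 0.21 and B2m at 0.026 in PT2. Without cells that had an immune marker PT2 gave −1.0009 for Cd74, 0.0094 for H2-K1 and −0.011 for H2-D1, and LOH −0.11 for B2m. With 1 library left out H2-K1 ran from −0.49 to 0.26 in PTs, −0.49 to 0.38 in PT1, −0.55 to 0.67 in PTc, −0.51 to 0.69 in PT2, −0.054 to 0.34 in LOH and −0.83 to 0.81 in GL_endo. H2-D1 ran from −0.14 to 0.62 in PTs, −0.36 to 1.12 in PT1, −0.27 to 0.71 in PTc, −0.35 to 0.64 in PT2, −0.21 to 0.24 in LOH and −0.56 to 0.66 in GL_endo. B2m ran from −0.16 to 0.090 in PTs, −0.47 to 0.41 in PTc, −0.36 to 0.13 in PT2, −0.29 to 0.42 in LOH and −0.35 to 0.64 in GL_endo, and Cd74 from −1.91 to 3.25 in PT1, −1.57 to 2.98 in PTc, −0.52 to 1.52 in PT2 and −0.31 to 3.17 in GL_endo.

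For the mixed libraries, with at most 25% mitochondrial UMIs B2m turned to −0.070 in PTs, −0.18 in PT1 and −0.061 in PT2, Cd74 to −0.13 in PT1 and −6.31 in LOH, and H2-K1 to −0.24 in PT2. With at least 2000 UMIs Cd74 turned to −1.19 in PT1 and −0.0022 in PT2, B2m to −0.078 in PT1 and H2-K1 to −0.026 in PT2. With 1 library left out H2-K1 ran from −0.013 to 0.75 in PTs and −0.37 to 1.19 in PT2, H2-D1 from −0.063 to 0.75 in PTs and −0.018 to 0.99 in PTc, and Cd74 from −1.67 to 4.47 in PT1, −0.79 to 2.04 in PT2 and −0.015 to 3.51 in GL_endo. Without KO mix, Cd74 in GL_endo passed at 3.51. Of the levels, H2-D1 and B2m in LOH moved to 214 and 107 CPM with at most 25% mitochondrial UMIs. Thinned to 1000 UMIs, the mean share of cells with a UMI moved to 3.09% for Cd74 in PTs, 67.0% for B2m in GL_endo and 28.0% for B2m in PTs, which depth limits.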
